A study of Mus musculus with 9 samples.

Results

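Imprinted genes known for their part in fetal growth, the 10 genes H19, Igf2, Meg3, Rian, Mirg, Dlk1, Peg3, Cdkn1c, Grb10 and Plagl1, were followed by RNA sequencing across 9 mouse hearts. They were chosen by name, and all 10 were found, each on a single line of the 43154 listed genes. The hearts came from C57BL/6 mice in 3 groups. The transgenic mice carry MHC-CnA, an activated calcineurin driven by the alpha-myosin heavy chain promoter, which acts in heart muscle cells and is a model of cardiac hypertrophy. Transgenic mice given JIB-04, an inhibitor of Jumonji histone demethylases, gave 2 hearts, heart 1 at day 125 of age and heart 2 at day 158. Transgenic mice given vehicle gave 3 hearts, heart 1 at day 125 and hearts 2 and 3 at day 158. Wild type mice given vehicle gave 4 hearts, hearts 1 and 2 at day 125 and hearts 3 and 4 at day 158. The JIB-04 dose was 50 mg/kg, given 3 times weekly and begun when the mice were 4 weeks old, and no wild type heart with JIB-04 was analysed here. The question was whether these genes change with the transgene, whether JIB-04 alters that, and how they stand beside the fetal genes that a hypertrophic heart takes up again.

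An imprinted gene is expressed mainly from the copy inherited from a single parent, a state kept by DNA methylation at control regions rich in CpG dinucleotides. Genes expressed from the paternal copy, such as Igf2, Dlk1, Peg3 and Plagl1, tend to promote growth of the fetus, and genes expressed from the maternal copy, such as H19, Cdkn1c and Grb10, tend to restrain it. Many of them are high in fetal tissues and are turned down after birth. The files give summed expression of both copies, so which parental copy was read was not analysed here.

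The 10 genes lie on 4 chromosomes, in GRCm38 coordinates counted from 1. On chromosome 7, H19, a long noncoding RNA, spans 142575529 to 142578143, and Igf2, a growth factor, spans 142650766 to 142666816, a gap of 72.6 kb. Cdkn1c, a cyclin-dependent kinase inhibitor also called p57Kip2, lies 792 kb beyond Igf2 at 143458350 to 143461050, and Peg3, a zinc finger protein, lies far from them at 6703892 to 6730421. On chromosome 12, Dlk1, a Notch-like membrane protein, spans 109452823 to 109463336 and is followed by the noncoding RNAs Meg3 at 109541001 to 109571726, Rian at 109603940 to 109661716 and Mirg at 109729764 to 109749460. Grb10, an adaptor that damps insulin and IGF receptor signalling, spans 11930508 to 12038683 on chromosome 11, and Plagl1, a zinc finger transcription factor also called Zac1, spans 13060504 to 13131694 on chromosome 10. H19, Igf2, Peg3, Cdkn1c and Grb10 are on the minus strand and the others on the plus strand. The library kit did not keep strand. Of the genes with exons over H19, Igf2, Meg3, Rian, Mirg and Plagl1, those listed in the files were at 0 in every heart except Igf2os, opposite Igf2, which reached at most 0.0622 FPKM. Gm49394 over Igf2, Gm26922 over Rian and Gm44732 over Cdkn1c were not listed, so reads from them cannot be told apart from the genes they overlap.

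Promoters are shown for Plagl1, Grb10 and Igf2, the genes with an entry among those that differed between transgenic vehicle and wild type hearts. RefSeq (GRCm38.p6) gave a promoter window, 250 bases before to 50 after a start site, for 8 of the 10 genes, in 13 windows; H19 and Cdkn1c had none. For each gene the window with the most CpG dinucleotides is printed 5′ to 3′ on the gene's strand, with each CpG in capitals. The first is chr10:13090582-13090881 on the plus strand, the second chr11:12037371-12037670 on the minus strand and the third chr7:142658755-142659054 on the minus strand.
Plagl1: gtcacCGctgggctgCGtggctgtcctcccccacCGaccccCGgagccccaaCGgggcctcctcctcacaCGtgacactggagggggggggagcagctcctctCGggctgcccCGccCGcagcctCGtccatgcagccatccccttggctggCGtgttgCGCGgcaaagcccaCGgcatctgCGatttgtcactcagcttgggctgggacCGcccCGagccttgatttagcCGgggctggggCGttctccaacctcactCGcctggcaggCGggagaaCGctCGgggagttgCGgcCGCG
Grb10: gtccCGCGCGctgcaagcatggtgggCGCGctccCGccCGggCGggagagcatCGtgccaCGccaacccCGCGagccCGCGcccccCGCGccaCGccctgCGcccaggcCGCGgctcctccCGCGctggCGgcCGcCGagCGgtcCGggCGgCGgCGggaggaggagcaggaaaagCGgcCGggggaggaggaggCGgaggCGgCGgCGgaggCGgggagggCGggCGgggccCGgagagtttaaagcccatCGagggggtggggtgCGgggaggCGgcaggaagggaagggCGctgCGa
Igf2: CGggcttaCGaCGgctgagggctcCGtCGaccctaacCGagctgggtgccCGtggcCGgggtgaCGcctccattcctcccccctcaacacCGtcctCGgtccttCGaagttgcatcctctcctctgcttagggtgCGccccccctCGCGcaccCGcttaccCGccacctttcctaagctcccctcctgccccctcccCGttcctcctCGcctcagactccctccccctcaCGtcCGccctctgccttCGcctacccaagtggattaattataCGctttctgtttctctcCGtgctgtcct
The Plagl1 window held 26 CpG and was 70.7% G and C, the Grb10 window held 45 CpG and was 80.0% G and C, and this Igf2 window, 1 of 4 listed for the gene, held 24 CpG and was 64.7% G and C. Over all 32851 promoter windows the median was 7 CpG. The other Igf2 windows held 7, 14 and 2 CpG. The other Grb10 window held 9 CpG and was 52.3% G and C. The core of the motif bound by NFAT, the factor that calcineurin activates, was searched as GGAAA on both strands. It was found in 0 places in the Plagl1 window and in 1 each in the Grb10 and Igf2 windows printed, while 61.3% of all windows held it. These counts describe letters in these windows only.

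Several of the noncoding genes carry microRNAs. RefSeq places 2 mature microRNAs within H19, 2 within Igf2, 3 within Meg3, 6 within Rian and 26 within Mirg. Those of H19 and Igf2 are printed 5′ to 3′ with the seed, bases 2 to 8, in capitals, since they are cut from transcripts whose levels are described next.
mmu-miR-675-5p (H19): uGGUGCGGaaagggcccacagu
mmu-miR-675-3p (H19): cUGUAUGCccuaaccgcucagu
mmu-miR-483-5p (Igf2): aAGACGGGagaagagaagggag
mmu-miR-483-3p (Igf2): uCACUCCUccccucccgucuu
The 4 seeds all differ. Mature microRNAs are too short for this kind of library and were not measured. Levels of the host genes are not levels of these microRNAs.

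Levels are given in FPKM, fragments scaled by transcript length and by library size, so they are per length. Differences and tests are on the log2(FPKM + 1) scale, which understates the change of low genes, from a limma fit of 3 group means and a term for day over all 13487 genes that reached 1 FPKM in 2 or more hearts. A gene was called at an adjusted p (Benjamini-Hochberg over all tested genes) under 0.05. Of the 10 genes 8 were tested; Mirg and Dlk1 stayed under 1 FPKM in all 9 hearts. Read totals were not given, and the relative depth of the hearts, from the steps between low values, ranged from 1.0 to 1.45 times that of wild type heart 1. The transcript of Ppp3ca, the gene of the calcineurin catalytic subunit, was at 1434 to 1762 FPKM in 4 transgenic hearts, at 199 FPKM in transgenic vehicle heart 3, and at 22.9 to 24.8 FPKM in wild type hearts. That heart and JIB-04 heart 2 also had the largest mitochondrial shares of summed FPKM, 29.8% and 30.9%, against at most 26.3% in the other 7 hearts. Wild type heart 2 had the smallest share, below the next lowest heart at 16.8% and the other wild type hearts at 24.7% to 26.3%. Results that rest on transgenic vehicle heart 3 are given with and without it. The labels call the hearts separate samples but do not say that each came from another animal, so p-values measure the spread between these samples. Wild type heart 4 stood apart in the myosin light chain genes Myl7 and Myl4, at 13.45 and 11.96 FPKM. The other wild type hearts were at or under 0.1647 and 3.585 FPKM. Which parts of the heart each sample held was not tested. In RNA from mixed heart tissue, fewer cells of a type and less RNA per cell cannot be told apart.

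**Figure D1:**
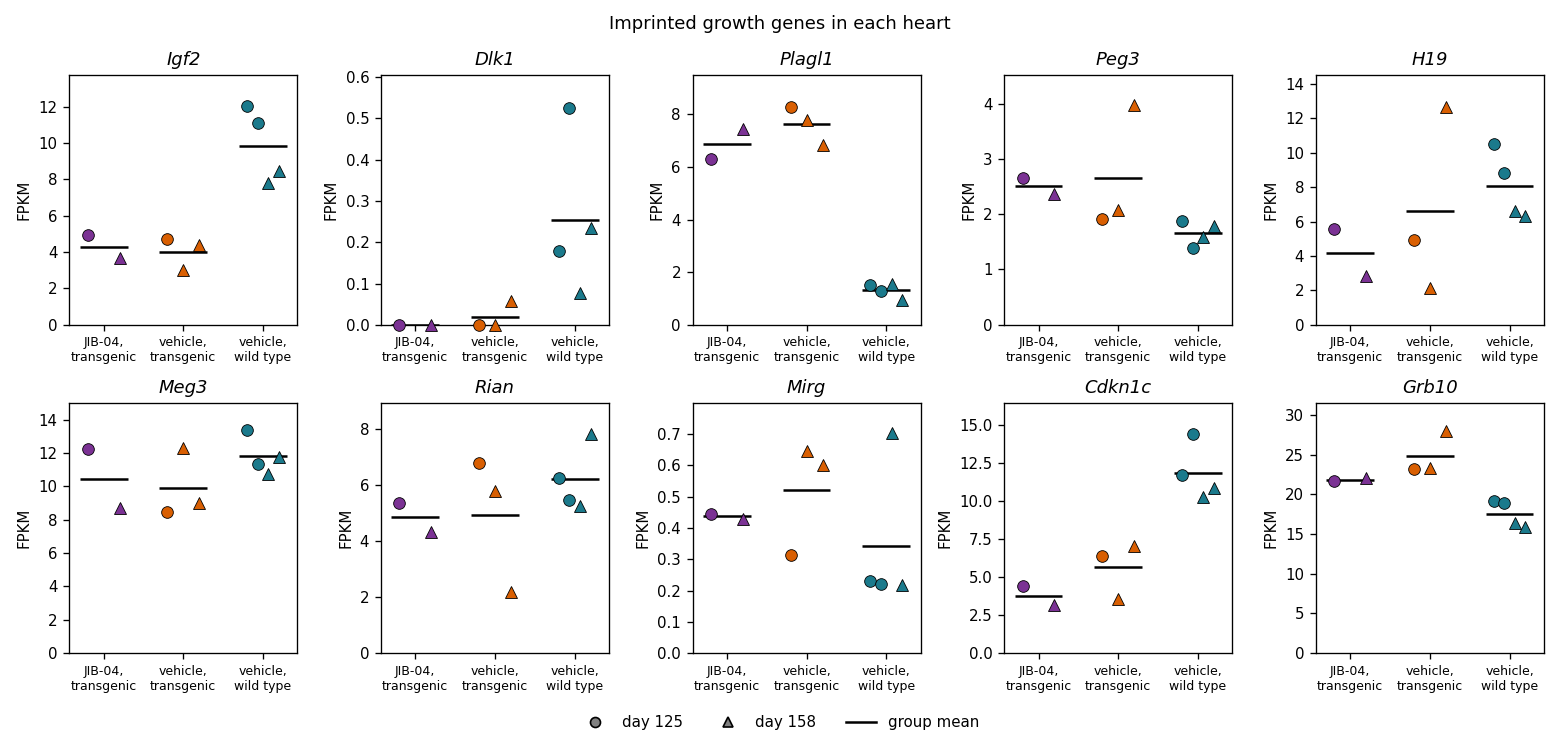
FPKM of each of the 10 genes in every heart (vertical axis, its own scale per gene), with JIB-04 transgenic, vehicle transgenic and wild type hearts from left to right, circles for day 125, triangles for day 158 and a line at each group mean. Plagl1 stood at 6.28 to 8.27 FPKM in the 5 transgenic hearts and at or under 1.57 FPKM in wild type hearts, whereas Igf2 and Cdkn1c were lower in every transgenic heart than in any wild type heart.

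With the transgene the genes did not move as a group. Plagl1 and Grb10 rose, Igf2 and Cdkn1c fell, and H19, Meg3, Rian and Peg3 did not pass the test, so that 2 of the 8 tested genes rose and 2 fell in transgenic vehicle hearts against wild type hearts (2 and 3 without transgenic vehicle heart 3). Over all tested genes, 36.0% were called in this comparison, 20.3% higher and 15.7% lower, and 4 of 8 is not far from that background. The median difference of the 8 genes was -0.28, against 0.05 over all tested genes. Under JIB-04, 0 of the 8 genes were called against transgenic vehicle hearts.

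Among the growth-promoting genes, Plagl1 had the widest difference. It had 6.28 and 7.43 FPKM in JIB-04 hearts 1 and 2, 8.27, 7.80 and 6.83 FPKM in transgenic vehicle hearts 1 to 3, and 1.51, 1.30, 1.57 and 0.956 FPKM in wild type hearts 1 to 4. All 5 transgenic hearts were above all 4 wild type hearts, and the JIB-04 and vehicle hearts overlapped. The mean was 7.63 ± 0.739 FPKM in transgenic vehicle hearts (SD, n = 3) and 1.33 ± 0.277 FPKM in wild type hearts (SD, n = 4). The difference was 1.90 ± 0.12 (SE; limma adjusted p = 3.16e-05), rank 131 of 13487 from the highest, and it was 1.76 ± 0.14 for JIB-04 hearts against wild type hearts (limma adjusted p = 0.000105).

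Igf2, which signals growth through the type 1 IGF receptor, went the other way. It had 4.92 and 3.67 FPKM in JIB-04 hearts 1 and 2, 4.71, 3.01 and 4.37 FPKM in transgenic vehicle hearts 1 to 3, and 12.1, 11.1, 7.79 and 8.49 FPKM in wild type hearts 1 to 4. Every transgenic heart was below every wild type heart, and JIB-04 hearts lay within the range of transgenic vehicle hearts or just above it. The mean was 4.03 ± 0.90 FPKM in transgenic vehicle hearts (SD, n = 3) and 9.87 ± 2.05 FPKM in wild type hearts (SD, n = 4). The difference was -1.04 ± 0.11 (SE; limma adjusted p = 0.000322), rank 307 of 13487 from the lowest, and that of JIB-04 hearts against wild type hearts was -1.03 ± 0.13 (limma adjusted p = 0.000702).

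Peg3 was higher in each transgenic heart than in each wild type heart, but by little. It had 2.66 and 2.36 FPKM in JIB-04 hearts 1 and 2, 1.91, 2.08 and 3.98 FPKM in transgenic vehicle hearts 1 to 3, and 1.88, 1.39, 1.59 and 1.79 FPKM in wild type hearts 1 to 4. Transgenic vehicle heart 1 lay just above wild type heart 1, and transgenic vehicle heart 3 stood highest. The difference of transgenic vehicle against wild type hearts was 0.40 ± 0.19 (SE), which did not pass (limma adjusted p = 0.133), and it was 0.17 ± 0.12 without transgenic vehicle heart 3 (limma adjusted p = 0.289). With hearts scaled to equal totals, which moved the median difference of all genes to 0.235, that of Peg3 was 0.54 (limma adjusted p = 0.0272).

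Dlk1 was near the lower limit everywhere. It was listed at 0 in both JIB-04 hearts and in transgenic vehicle hearts 1 and 2, was at 0.0585 FPKM in transgenic vehicle heart 3, and was at 0.179, 0.524, 0.077 and 0.234 FPKM in wild type hearts 1 to 4. The transgenic hearts thus all lay below the wild type hearts, at levels under the filter of the test. With no filter its difference of transgenic vehicle against wild type hearts was -0.27 ± 0.11 (SE) and did not pass (limma adjusted p = 0.156). Counting Dlk1 and Mirg, 3 of the 10 genes had all 5 transgenic hearts above the 4 wild type hearts (Plagl1, Grb10, Peg3) and 3 had all 5 below (Igf2, Cdkn1c, Dlk1). Among the 13487 tested genes, 20.4% lay wholly above and 15.3% wholly below.

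Among the growth-restraining genes, Cdkn1c fell. This inhibitor holds cells in the resting phase of the cell cycle. It had 4.39 and 3.15 FPKM in JIB-04 hearts 1 and 2, 6.37, 3.57 and 7.03 FPKM in transgenic vehicle hearts 1 to 3, and 11.7, 14.4, 10.3 and 10.9 FPKM in wild type hearts 1 to 4. All transgenic hearts were below all wild type hearts, with JIB-04 heart 2 the lowest and an overlap between JIB-04 and vehicle hearts. The mean was 5.66 ± 1.84 FPKM in transgenic vehicle hearts (SD, n = 3) and 11.8 ± 1.81 FPKM in wild type hearts (SD, n = 4), a difference of -0.92 ± 0.18 (SE; limma adjusted p = 0.00526). With day 158 hearts only it was -0.93 and did not pass (limma adjusted p = 0.109). For JIB-04 hearts, with a mean of 3.77 ± 0.876 FPKM (SD, n = 2), the difference against wild type hearts was -1.43 ± 0.20 (limma adjusted p = 0.00137).

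Grb10 had the highest level of the 10 genes in every heart. It had 21.7 and 22.0 FPKM in JIB-04 hearts 1 and 2, 23.2, 23.3 and 28.0 FPKM in transgenic vehicle hearts 1 to 3, and 19.2, 18.9, 16.4 and 15.8 FPKM in wild type hearts 1 to 4. The 3 groups did not overlap, with JIB-04 hearts between the other groups; 12.4% of all tested genes had JIB-04 and vehicle hearts apart. The mean was 24.8 ± 2.78 FPKM in transgenic vehicle hearts (SD, n = 3) and 17.6 ± 1.71 FPKM in wild type hearts (SD, n = 4), a difference of 0.49 ± 0.10 (SE; limma adjusted p = 0.00721), and with day 158 hearts only 0.64, which did not pass (limma adjusted p = 0.0561). The difference of JIB-04 hearts against wild type hearts was 0.30 ± 0.11 and did not pass (limma adjusted p = 0.0738), though it did without transgenic vehicle heart 3, which shares the estimate of spread (limma adjusted p = 0.0224).

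H19, whose noncoding RNA is the host of miR-675 printed above, rested on a single heart. It had 5.58 and 2.82 FPKM in JIB-04 hearts 1 and 2, 4.93, 2.16 and 12.7 FPKM in transgenic vehicle hearts 1 to 3, and 10.5, 8.84, 6.63 and 6.33 FPKM in wild type hearts 1 to 4. Both JIB-04 hearts and transgenic vehicle hearts 1 and 2 were below all wild type hearts, and transgenic vehicle heart 3 was above them all. With all hearts the difference of transgenic vehicle against wild type hearts was -0.43 ± 0.44 (SE; limma adjusted p = 0.48). Without transgenic vehicle heart 3 it was -1.04 ± 0.12 (limma adjusted p = 0.000538), and without transgenic vehicle heart 2 it was 0.02 ± 0.37 (limma adjusted p = 0.979). For JIB-04 against wild type hearts it was -0.83 ± 0.49 with all hearts (limma adjusted p = 0.235), and without transgenic vehicle heart 3 the same value passed (limma adjusted p = 0.00133).

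None of the noncoding RNAs of the Dlk1 domain passed the test with all hearts. Meg3, thought to restrain growth through p53, had 12.2 and 8.70 FPKM in JIB-04 hearts 1 and 2, 8.46, 12.3 and 9.02 FPKM in transgenic vehicle hearts 1 to 3, and 13.4, 11.4, 10.8 and 11.8 FPKM in wild type hearts 1 to 4. The groups overlapped, with 3 transgenic hearts below the wild type range. Its difference of transgenic vehicle against wild type hearts was -0.23 ± 0.15 (SE; limma adjusted p = 0.276), and -0.39 ± 0.13 without transgenic vehicle heart 2 (limma adjusted p = 0.049).

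Rian, a host of small nucleolar RNAs and microRNAs, had 5.35 and 4.33 FPKM in JIB-04 hearts 1 and 2, 6.79, 5.79 and 2.19 FPKM in transgenic vehicle hearts 1 to 3, and 6.24, 5.44, 5.25 and 7.83 FPKM in wild type hearts 1 to 4. Transgenic vehicle heart 3 was the lowest, and the other hearts of all groups overlapped. The difference of transgenic vehicle against wild type hearts was -0.33 ± 0.28 (SE; limma adjusted p = 0.401), and 0.03 without transgenic vehicle heart 3.

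Mirg, the host of a microRNA cluster, had 0.445 and 0.429 FPKM in JIB-04 hearts 1 and 2, 0.312, 0.646 and 0.602 FPKM in transgenic vehicle hearts 1 to 3, and 0.229, 0.219, 0.703 and 0.218 FPKM in wild type hearts 1 to 4. Wild type heart 3 was the highest and the other 3 wild type hearts the lowest. With no filter its difference of transgenic vehicle against wild type hearts was 0.15 ± 0.12 (SE; limma adjusted p = 0.484). Rtl1 and Dio3, protein-coding genes of the same domain, stayed at or under 0.298 FPKM in all 9 hearts. Dio3 was at 0.2535 and 0.2852 FPKM in JIB-04 hearts 1 and 2, and at 0.1753, 0.2977 and 0.08598 FPKM in transgenic vehicle hearts 1 to 3. It was at 0.05409 FPKM in wild type heart 1 and at 0 in wild type hearts 2 to 4. The transgenic hearts thus all lay above the wild type hearts in Dio3, at levels under the filter of the test.

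**Figure D2:**
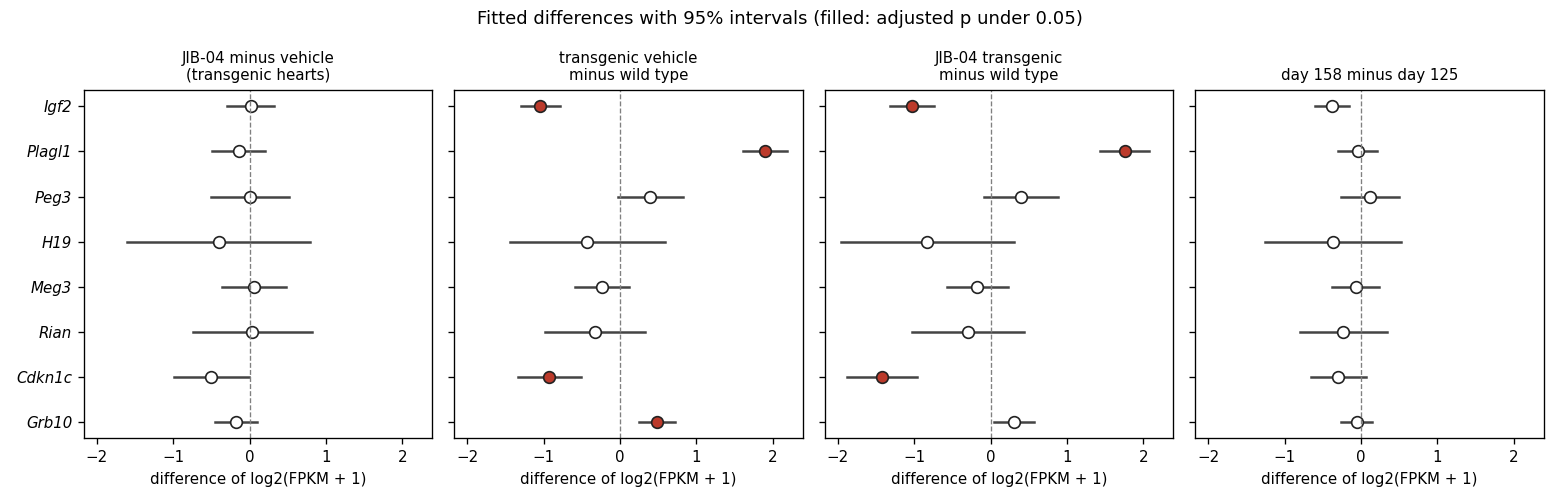
Fitted difference of log2(FPKM + 1) for the 8 tested genes (points, with 95% intervals as lines), in 4 panels: JIB-04 against vehicle in transgenic hearts, transgenic vehicle against wild type, JIB-04 transgenic against wild type, and day 158 against day 125. Filled points have an adjusted p under 0.05; they are Igf2, Plagl1, Cdkn1c and Grb10 in the second panel and Igf2, Plagl1 and Cdkn1c in the third.

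JIB-04 did not shift any of the 8 genes past the test when set against vehicle in transgenic hearts. Over all tested genes 1 was called, 0.00741%, and among the 8 genes Cdkn1c alone had an unadjusted p under 0.05 in limma. Its difference was -0.50, with a 95% interval of -0.99 to -0.01 (limma adjusted p = 0.987), with 4.39 and 3.15 FPKM in JIB-04 hearts against 6.37, 3.57 and 7.03 FPKM in transgenic vehicle hearts. The difference was 0.02 for Igf2 (95% interval -0.29 to 0.32), -0.14 for Plagl1 (-0.49 to 0.20) and -0.18 for Grb10 (-0.46 to 0.10). The intervals of Igf2 and Plagl1 exclude differences as large as those of the transgene, while that of Grb10 reaches -0.46, near the size of its own transgene difference of 0.49. For Peg3 the difference was 0.00 (-0.51 to 0.52), for Meg3 0.06 (-0.37 to 0.48), for Rian 0.04 (-0.74 to 0.81) and for H19 -0.40 (-1.61 to 0.80). With 2 hearts against 3, the intervals of H19, Rian, Peg3 and Meg3 leave room for differences in either direction as large as those of the transgene, and that of Cdkn1c reaches past its transgene difference of -0.92 on the lower side.

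JIB-04 hearts against wild type hearts gave 3 calls among the 8 genes, 1 higher (Plagl1) and 2 lower (Igf2 and Cdkn1c), where 32.3% of all tested genes were called, 17.4% higher and 14.8% lower. This comparison shares its wild type hearts with that of transgenic vehicle hearts, so the 2 are not independent. Without transgenic vehicle heart 3 there were 6 calls, Grb10, H19 and Peg3 being added, and with day 158 hearts only there was 1, Plagl1, as Igf2 (-0.97, limma adjusted p = 0.082) and Cdkn1c (-1.48, limma adjusted p = 0.0841) did not pass. Without transgenic vehicle heart 3, 5322 of 13397 tested genes were called, and the day 158 hearts held a single JIB-04 heart. With all hearts Peg3 (0.40, limma adjusted p = 0.181), Meg3 (-0.18, limma adjusted p = 0.477) and Rian (-0.29, limma adjusted p = 0.521) did not pass.

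The transgene differences were also fitted within each day. At day 125, with a single transgenic vehicle heart against 2 wild type hearts, Plagl1 differed by 1.95 (limma adjusted p = 0.00961) and Igf2 by -1.14 (limma adjusted p = 0.0318), where 8.33% of all genes were called. At day 158, with 2 hearts against 2, Plagl1 differed by 1.89 (limma adjusted p = 0.00303), Igf2 by -0.98 (limma adjusted p = 0.0171) and Grb10 by 0.64 (limma adjusted p = 0.0212), where 16.7% were called. Cdkn1c differed by -0.92 at day 125 and -0.93 at day 158 and passed at neither (limma adjusted p = 0.155 and 0.0684), and Grb10 differed by 0.27 at day 125 (limma adjusted p = 0.296). The test of the difference between days called 0 of the 8 genes, and 0 had an unadjusted p under 0.05 in limma; 0.00741% of all genes were called. The intervals of that test were wide, -0.72 to 0.60 for Plagl1 and -1.81 to 3.12 for H19.

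Between the days themselves, 0 of the 8 genes were called, where 0.378% of all tested genes were, and Igf2 alone had an unadjusted p under 0.05 in limma. Igf2 was lower at day 158 by a difference of -0.38 ± 0.10 (SE; limma adjusted p = 0.102). In the groups it was at 3.67 FPKM at day 158 against 4.92 FPKM at day 125 with JIB-04, a mean of 3.69 against 4.71 FPKM in transgenic vehicle hearts and a mean of 8.14 against 11.6 FPKM in wild type hearts, lower at the later day in all 3. Without transgenic vehicle heart 3 the day difference passed for Igf2 (-0.44, limma adjusted p = 0.0433) and for its neighbour H19 (-0.68, limma adjusted p = 0.0368). H19 was at 2.82 FPKM at day 158 against 5.58 FPKM at day 125 with JIB-04, at a mean of 7.42 against 4.93 FPKM in transgenic vehicle hearts, and at a mean of 6.48 against 9.66 FPKM in wild type hearts, so that it was higher at the later day in the transgenic vehicle group, where heart 3 was at 12.7 FPKM and heart 2 at 2.16 FPKM.

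Of the fetal and hypertrophy program, 9 of 12 listed genes rose and 0 fell in transgenic vehicle hearts (10 and 0 without transgenic vehicle heart 3). Their median difference was 1.93, and over all tested genes 20.3% were higher and 15.7% lower. The list was chosen with earlier results of these data known, so these values are a description and cannot test for a shared rise. Myh7, the slow myosin of the fetal mouse ventricle, averaged 2482 ± 736 FPKM in transgenic vehicle hearts (SD, n = 3) and 111 ± 22.3 FPKM in wild type hearts (SD, n = 4), a difference of 4.46 (limma adjusted p = 6.78e-06). Nppb, a natriuretic peptide, differed by 3.18 and Acta2, smooth muscle actin, by 3.09. In JIB-04 hearts 9 of the 12 were called higher than in wild type hearts, where 17.4% of all tested genes were higher. Of the 12, 0 differed between JIB-04 and vehicle, with 0 at an unadjusted p under 0.05 in limma. Among the imprinted growth genes, Igf2 and Cdkn1c were lower in these hearts, and Plagl1 and Grb10 were higher. The samples include no fetal heart, so a return of these genes to fetal levels was not tested.

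**Figure D3:**
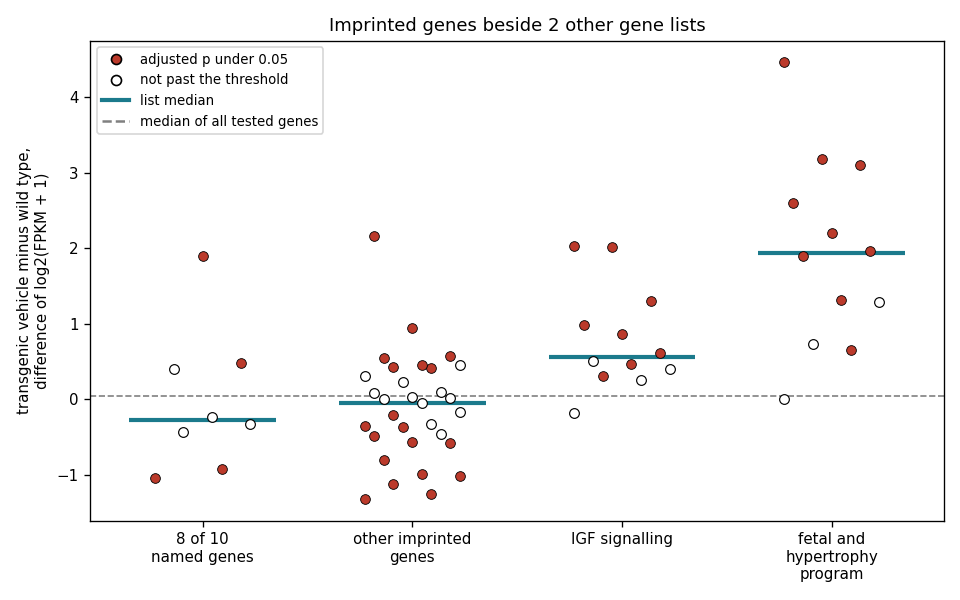
Differences of log2(FPKM + 1) between transgenic vehicle and wild type hearts (vertical axis) for the tested genes of 4 lists, with filled points for adjusted p under 0.05, a bar at each list's median and a dashed line at the median of all tested genes. The median was -0.28 for the 8 imprinted growth genes, -0.05 for other imprinted genes, 0.56 for the list labelled IGF signalling and 1.93 for the fetal and hypertrophy program. The lists were chosen with earlier results of these data known.

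In a list made around IGF signalling, 8 of 12 tested genes among 18 listed were higher and 0 lower in transgenic vehicle hearts. Without transgenic vehicle heart 3 it was 6 and 0. Of all tested genes 20.3% were higher, and the median difference of the list was 0.56. The list also held Hmga1 and Igf2bp2, which are not IGF ligands, receptors, binding proteins or adaptors. Irs1, an adaptor of the insulin and IGF1 receptors, averaged 13.2 ± 2.91 FPKM in transgenic vehicle hearts (SD, n = 3) and 2.38 ± 0.641 FPKM in wild type hearts (SD, n = 4), a difference of 2.02 (limma adjusted p = 0.000179). Igfbp6, a binding protein that prefers Igf2, differed by 2.01 (limma adjusted p = 0.00169), and Igfbp7 by 1.30 (limma adjusted p = 0.000156). Igf2r, an imprinted receptor that clears Igf2, was counted with the other imprinted genes and not among these 12. It averaged 31.4 ± 6.95 FPKM in transgenic vehicle hearts (SD, n = 3) and 26.1 ± 4.47 FPKM in wild type hearts (SD, n = 4) and did not pass (0.23, limma adjusted p = 0.355). In JIB-04 hearts 6 of the 12 were higher than in wild type hearts, where 17.4% of all tested genes were higher. Of the 12, 0 differed between JIB-04 and vehicle, with 0 at an unadjusted p under 0.05 in limma. Igfbp7 averaged 470 ± 20.6 FPKM with JIB-04 (SD, n = 2) and 406 ± 72.7 FPKM with vehicle (SD, n = 3).

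Around Cdkn1c, its relative Cdkn1a (p21) rose, by 1.67 (limma adjusted p = 0.0113), averaging 29.5 ± 16.5 FPKM in transgenic vehicle hearts (SD, n = 3) and 8.20 ± 3.13 FPKM in wild type hearts (SD, n = 4). Transgenic vehicle heart 3, at 48.6 FPKM, raised that mean. Transgenic vehicle hearts 1 and 2 were at 20.7 and 19.2 FPKM, and wild type hearts at most at 12.2 FPKM. Cdkn1b (p27) had a difference of -0.29 and did not pass (limma adjusted p = 0.0947). In all, 2 of 9 tested genes of Cdkn1c's family and its cell-cycle partners were higher, Cdkn1a and the cyclin gene Ccnd2 (0.64). The kinase gene Cdk2 (-0.54) was the 1 lower, and the median difference was 0.08. Over all tested genes 20.3% were higher and 15.7% lower, so these counts with all hearts are near that background. Without transgenic vehicle heart 3, 3 were higher and 2 lower. Between JIB-04 and vehicle 0 of the 9 were called, and 0 had an unadjusted p under 0.05 in limma.

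Other genes listed as imprinted also went both ways, and whether each is imprinted in the adult heart was not analysed. Of a list of 60, 58 were in the files and 30 were tested, Snrpn on 2 lines, and 7 of the 31 lines were higher and 12 lower in transgenic vehicle hearts, 61.3% against 36.0% of all tested genes, with a median difference of -0.05. Calls numbered 8 higher and 10 lower without transgenic vehicle heart 3. With day 158 hearts only there were 5 in all, where 1217 of 13043 tested genes were called. Those higher were led by Cobl, an actin nucleator beside Grb10, at 38.8 ± 5.02 FPKM in transgenic vehicle hearts (SD, n = 3) and 8.40 ± 2.10 FPKM in wild type hearts (SD, n = 4), a difference of 2.17 ± 0.14 (SE; limma adjusted p = 3.34e-05). Dcn, an extracellular matrix proteoglycan, was higher by 0.94, Zrsr1, a splicing factor, by 0.58, Mcts2 by 0.54, Inpp5f, a phosphatase, by 0.45 and Gnas, a G protein subunit, by 0.42.

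Those lower were led by Ddc, a decarboxylase on the other side of Grb10, at 0.442 ± 0.274 FPKM in transgenic vehicle hearts (SD, n = 3) and 2.79 ± 1.06 FPKM in wild type hearts (SD, n = 4), a difference of -1.32 ± 0.19 (SE; limma adjusted p = 0.00128). Mest, a paternally expressed growth gene, was at 1.08 ± 0.209 FPKM in transgenic vehicle hearts (SD, n = 3) and 3.33 ± 0.89 FPKM in wild type hearts (SD, n = 4), a difference of -1.02. The transporters Slc38a4 and Slc22a3 differed by -1.25 and -1.13, Snrpn by -0.99 and -0.58 on its 2 lines, and Kcnq1, a potassium channel in the domain of Cdkn1c, by -0.81. Around Grb10 on chromosome 11 the neighbours took different directions, Cobl and Grb10 higher and Ddc lower. Of the named genes on chromosome 7, Igf2, Kcnq1, Cdkn1c and both lines of Snrpn were lower. Inpp5f, also on chromosome 7, was higher, and H19 and Peg3 did not pass.

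In JIB-04 hearts against wild type hearts, 6 of the 31 lines were higher and 9 lower, where 17.4% of all tested genes were higher and 14.8% lower. Cobl at 2.24, Dcn at 0.94 and Inpp5f at 0.62 were the furthest up. Ddc at -1.65, Slc22a3 at -1.21 and Snrpn at -1.14 were the furthest down. Between JIB-04 and vehicle 0 of the 31 were called, and 1, Asb4, had an unadjusted p under 0.05 in limma. Gnas averaged 595 ± 71.6 FPKM with JIB-04 (SD, n = 2) and 642 ± 24.0 FPKM with vehicle (SD, n = 3), and Dcn 378 ± 24.5 FPKM with JIB-04 and 402 ± 143 FPKM with vehicle. Between days 0 were called, and 3 had an unadjusted p under 0.05 in limma.

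**Figure D4:**
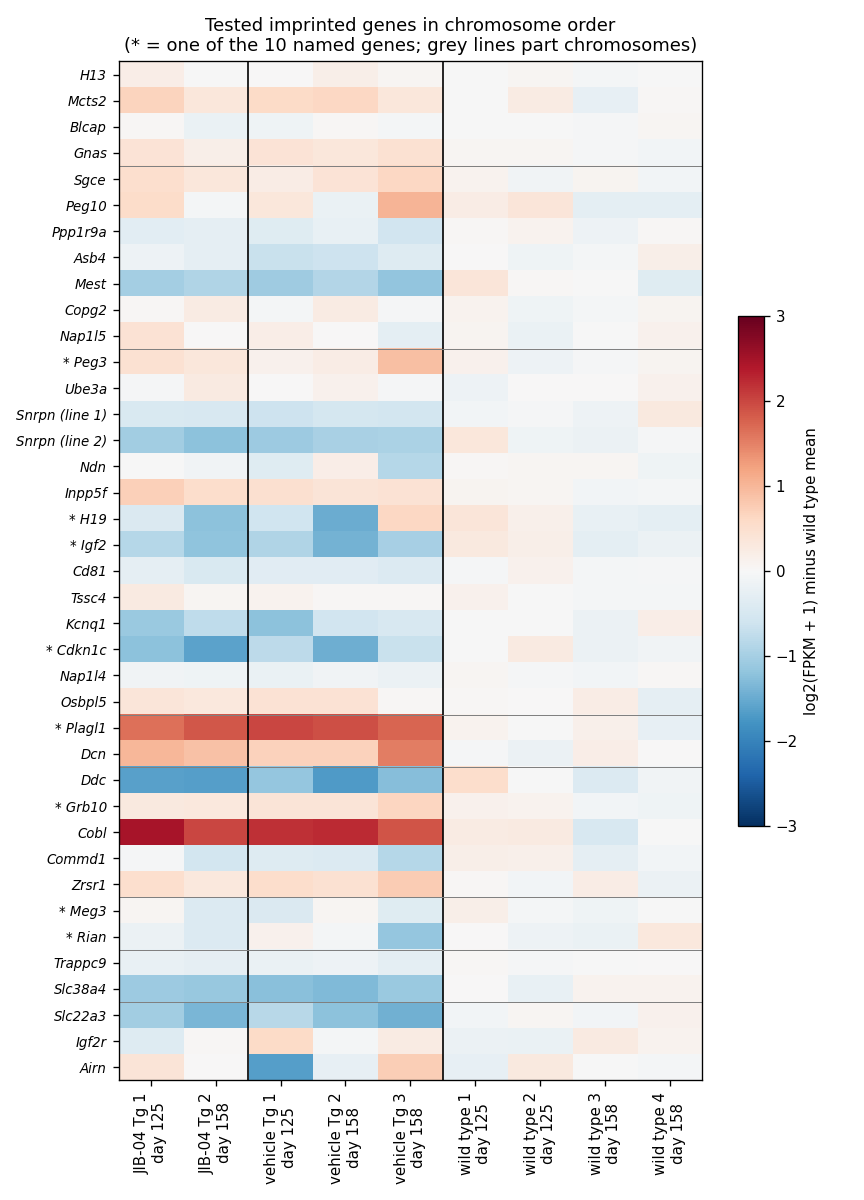
Level of each tested imprinted gene in each heart, as log2(FPKM + 1) minus the mean of the 4 wild type hearts (colour), with genes in chromosome order down the page and JIB-04, vehicle transgenic and wild type hearts from left to right. Plagl1 and Cobl are high in all 5 transgenic hearts and Igf2, Cdkn1c, Ddc, Mest, Slc38a4 and Slc22a3 low in all 5, while H19 and Rian in transgenic vehicle heart 3 stand apart from the other transgenic hearts.

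Markers of some cells of the heart differed between transgenic vehicle and wild type hearts, where 20.3% of all tested genes were higher and 15.7% lower. In that comparison 0 of 8 tested macrophage, 0 of 1 epicardial, 0 of 3 erythroid and 0 of 2 Schwann cell and neuronal markers were called. Without transgenic vehicle heart 3, 1 macrophage and 1 epicardial marker were called, both lower. Of 8 endothelial markers, 6 were lower and 0 higher in transgenic vehicle hearts (8 and 0 without transgenic vehicle heart 3). Their summed level was 180 to 202 FPKM in JIB-04 hearts, 201 to 276 FPKM in transgenic vehicle hearts and 326 to 347 FPKM in wild type hearts. Of 8 smooth muscle and pericyte markers, 6 were lower and 1 higher, with sums of 188 to 207 FPKM in JIB-04 hearts, 194 to 220 FPKM in transgenic vehicle hearts and 346 to 395 FPKM in wild type hearts. Igf2 and Cdkn1c were lower in the same hearts, and the part of these cells in that was not tested.

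Of 10 fibroblast markers, 6 were higher and 0 lower (9 and 0 without transgenic vehicle heart 3), beside 20.3% and 15.7% of all tested genes. Their sums were 392 to 431 FPKM in JIB-04 hearts, 171 to 431 FPKM in transgenic vehicle hearts and 136 to 165 FPKM in wild type hearts. The sum of 171 FPKM belonged to transgenic vehicle heart 3, in which Plagl1 was at 6.83 FPKM and Grb10 at 28.0 FPKM. Of 8 cardiomyocyte markers 4 were lower and 0 higher, with sums of 14550 to 16050 FPKM in JIB-04 hearts, 14060 to 16760 FPKM in transgenic vehicle hearts and 17980 to 21350 FPKM in wild type hearts. No marker of these 4 lists was at 0 in all hearts, and their part in the levels of the imprinted genes was not tested.

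By the mean absolute difference of log2(FPKM + 1) over the 9 hearts, each gene centred on its own mean, the tested genes most like Igf2 were Fabp5 (0.12), a fatty acid binding protein, Egf (0.121), a growth factor, and Plscr5 (0.122). Fabp5 averaged 17.9 FPKM in JIB-04 hearts, 17.3 FPKM in transgenic vehicle hearts and 33.9 FPKM in wild type hearts. Most like Plagl1 were Lgalsl (0.116), Zyx (0.118), a focal adhesion protein, and Serpinb1c (0.121), and Zyx averaged 69.5 FPKM in JIB-04 hearts, 66.4 FPKM in transgenic vehicle hearts and 17.8 FPKM in wild type hearts. Most like Cdkn1c were Celsr2 (0.142), Cyp4b1 (0.146) and Tbc1d10c (0.157).

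Most like H19 was Gpihbp1 (0.193), which anchors lipoprotein lipase on capillary endothelium, followed by Agt (0.235), the precursor of angiotensin, and E130102H24Rik (0.244). Gpihbp1 ranged over 52.8 to 58.6 FPKM in JIB-04 hearts, 55.5 to 138 FPKM in transgenic vehicle hearts and 83.5 to 132 FPKM in wild type hearts, overlapping between the vehicle groups as H19 did. Rian was most like Gm20683 (0.114), 4632428C04Rik (0.116) and Tuba8 (0.123), and Peg3 most like 1700047I17Rik2 (0.055), Pgrmc2 (0.076) and Rps6kb1 (0.08). Meg3 and Grb10 spanned under 1 on this scale and were not matched. Among the 8 genes themselves the closest pairs were Grb10 and Peg3 (0.156), Cdkn1c and Igf2 (0.215) and Meg3 and Rian (0.235), with H19 and Igf2 at 0.357. Genes that vary little lie close by this measure whatever their pattern, so the pairs with Grb10 or Meg3 cannot show a shared pattern. These likenesses share libraries and groups and are a description only.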

How the data were processed

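RNA was measured in 9 hearts; group, replicate number and day are those of the labels, which put 4 hearts at day 125 although the series text has dosing run to day 158. The labels' protocols name Trizol for extraction and a library kit blind to strand. The submitters' processing notes list Cufflinks 2.2.1, STAR 2.7.1a, GATK 4.1.2 and Picard, without roles or order. The deposited values are log2 FPKM, per the file headers; every heart's lowest value was exactly 0, so a constant of 1 was taken to have been added. Deposited loci count from 0 (start plus 1 equalled the GENCODE M21 start in 82.8% of 39331 matched genes), and that release gave strands and exon overlaps.

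Tests used limma 3.58.1 in R 4.3.3, with 3 group means and day over all 9 hearts, a trended prior and two-sided p-values adjusted by Benjamini-Hochberg over the 13487 genes that reached 1 FPKM in 2 or more hearts. The difference of the transgene effect between days, and the values within each day, came from a fit of the means of each group at each day. On simulated data 200 of 13487 genes had known changes. For transgenic vehicle against wild type the fit recovered 85.7% of changes of 1 on the log2 scale and 38.5% of changes of 0.5. For JIB-04 against vehicle it recovered 72.2% and 24.5%. Of calls, 7.02% and 5.08% were false. In the data 4862 and 1 genes were called in these comparisons. The adjusted p depends on how many genes change, so the rates in the data may differ. The 10 genes and all lists were chosen with earlier results of these data known. All 10 are named in each comparison. From the other imprinted list up to 6 called genes per direction and from the other lists up to 3 are named, by size of difference. Where none was called, the 2 highest are named (Igfbp4, Ccnd2, Ccnd3, Myh7 and Nppa, between JIB-04 and vehicle, had limma adjusted p of 0.987 each). Asb4, Cdkn1b, Igf2r, Rtl1, Dio3, Myl4 and Myl7 were added after their values were seen. Of skeletal muscle markers 2 of 4 were called in transgenic vehicle against wild type, both lower, where 15.7% of all tested genes were lower. No adipocyte marker was tested.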

Additional observations from a re-analysis of the deposited data

Results flagged for a closer look

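Mirg in wild type heart 3 stood apart from the other wild type hearts, at 0.703 FPKM against 0.218 to 0.229 FPKM. Its gap to the nearest heart was 0.971 of the range of the 4 wild type hearts on the log2(FPKM + 1) scale, above the 95% critical value of Dixon's test for 4 samples. Chance flags about 1 in 20 groups of samples, and all 9 hearts were under 1 FPKM.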

How the results depend on the processing

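Igf2 and Plagl1 kept their calls in transgenic vehicle against wild type hearts under all 24 alternatives, with differences of -1.20 to -0.85 and 1.72 to 2.46. Calls among the 8 genes numbered 4 there, 2 with day 158 hearts only (Cdkn1c at an adjusted p of 0.109 and Grb10 at 0.0561 no longer passed) and 4 to 5 when each heart was left out in turn. Calls among other imprinted genes numbered 19, but 12 with a filter of 5 FPKM, 5 with day 158 hearts only and 14 to 20 leaving out each heart. For JIB-04 against wild type hearts they numbered 3 among the 8 genes, 1 with day 158 hearts only, 6 with only the compared groups and 3 to 6 leaving out each heart (6 without transgenic vehicle heart 3), and 15 among other imprinted genes, 3 with day 158 hearts only and 8 to 16 leaving out each heart (8 without JIB-04 heart 1). For the day difference, leaving out each heart gave 0 to 2 calls among the 8 genes (2 without transgenic vehicle heart 3) and 0 to 1 among other imprinted genes (1 without transgenic vehicle heart 2). Deviations from the group means correlated at -0.186 to 0.432 between same-numbered hearts and at -0.432 to 0.358 between other hearts of different groups. With 2 JIB-04 hearts the deviations mirror each other, so these values cannot decide whether replicate numbers pair the hearts. Heart 2 was from day 158 in both transgenic groups and from day 125 in wild type, so the numbers do not follow day. With the replicate number as a block, calls for transgenic vehicle against wild type were 3 among the 8 genes and 11 among other imprinted genes. Grb10 was then at 0.48 (limma adjusted p = 0.0762). For JIB-04 against wild type the calls were 3 and 8. Scaling to equal totals changed the split over all genes to 4504 higher and 1006 lower, against 2739 and 2123. Calls over all genes moved too. For transgenic vehicle against wild type they numbered 4862 of 13487, 1217 of 13043 with day 158 hearts only and 2458 with the block. For JIB-04 against wild type they numbered 4354 of 13487, 5322 of 13397 without transgenic vehicle heart 3 and 1542 with the block. With only the compared groups 5079 of 13196 were called. The day 158 hearts held a single JIB-04 heart. So calls among these genes moved with those over all genes. Chosen after seeing the data, leaving out transgenic vehicle heart 3 and JIB-04 heart 2 together gave 5 calls for transgenic vehicle and 4 for JIB-04 against wild type among the 8 genes, H19 being added at -1.04 and -0.76, and 16 and 11 among other imprinted genes.

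Directions turned only in values that did not pass the test, and the cause was not tested. For JIB-04 against vehicle they were Igf2 at -0.03, Peg3 at -0.03 and Rian at -0.02 with equal totals, Peg3 at -0.01 with quantile normalization and -0.02 with no term for day, Rian at -0.01 with only the compared groups, Meg3 at -0.25, Peg3 at -0.22 and Plagl1 at 0.02 with day 158 hearts only, and, under the replicate block, Meg3 at 0.00 and Rian at -0.18. For the day difference they were Grb10 at 0.04, Meg3 at 0.03 and Plagl1 at 0.03 with totals equal outside mitochondrial and the 20 highest genes, and, under the replicate block, Meg3 at 0.18, Peg3 at -0.10, Plagl1 at 0.27 and Rian at 0.38. With both hearts left out together, H19 was at 0.28 and Rian at -0.19 for JIB-04 against vehicle, Rian at 0.03 for transgenic vehicle and Meg3 at 0.09 for JIB-04 against wild type, Meg3 at 0.08 and Rian at 0.02 for day, and H19 at -0.40, Igf2 at -0.05 and Plagl1 at 0.02 for the difference between days. Leaving out each heart, JIB-04 against vehicle ranged over -0.85 to 0.21 for H19, -0.07 to 0.14 for Igf2, -0.17 to 0.32 for Meg3, -0.32 to 0.32 for Rian, -0.17 to 0.23 for Peg3 and -0.32 to 0.01 for Plagl1; transgenic vehicle against wild type over -1.04 to 0.02 for H19 and -0.61 to 0.03 for Rian; JIB-04 against wild type over -0.42 to 0.07 for Meg3; day over -0.23 to 0.04 for Meg3, -0.02 to 0.19 for Peg3 and -0.12 to 0.03 for Plagl1; and the difference between days over -0.40 to 1.71 for H19, -0.05 to 0.37 for Igf2, -0.42 to 0.40 for Cdkn1c and -0.26 to 0.14 for Plagl1. Peg3 was not tested with the 5 FPKM filter, and the difference between days could not be fitted with the replicate block or without transgenic vehicle heart 1. With at most 4 hearts a group, differences smaller than the intervals given could not be detected.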
